A study of Mus musculus with 2 samples.

Results

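The 10 genes described here, Retnla, Ear1, Ear2, Ccl24, Ccl17, Chil3, Mrc1, Mgl2, Cd163 and Arg1, are known as products of alternatively activated macrophages. They were found by gene name among the 37007 genes of the array, and 21346 of those genes gave a signal well above background on at least 1 array. The members were chosen by their known role and with their values on these same arrays in view, so their differences are a description and no test was made of them. Magnetic beads against CD326, the epithelial adhesion molecule EpCAM, were used to collect cells from female C57BL/6 mice (the study's methods name the substrain C57BL/6N), from the submandibular gland. The young array held RNA of a mouse aged 9 weeks and the aged array RNA of a mouse aged 24 months, on the same slide and with the same dye, Cy3. No allele, transgene or treatment is named for either age. With 1 array per age, there were no replicates to set a difference against, and age, mouse, sort and array cannot be told apart. The bead selection is an enrichment, and the study's methods state a purity for it that leaves room for other cells.

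Macrophages take up an alternatively activated state when interleukin 4 (IL-4) or IL-13 binds the receptor chain IL-4Ra and the transcription factor STAT6 is phosphorylated. In the mouse, this state is known for a set of secreted proteins, lectin and scavenger receptors and the enzyme arginase, and it is linked to tissue repair, to the clearance of debris and to responses against helminths. Several of these genes are also made by other cells. Eosinophils express the Ear ribonucleases, dendritic cells express Ccl17 and Mgl2, and Retnla is also made by some epithelial and fat cells.

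The array measures each gene with probes of 60 bases, and 12 probes carry the names of the 10 members. The positions given are those of the deposited files, on mm9. Exon and UTR labels of the probes are not used here. Some sequences are shown because they bear on how the values are read. The Ear1 probe is listed for Ear1 alone and lies on the reverse strand at chr14:44396709-44396768, and the Ear2 probe is listed for both Ear1 and Ear2 and lies on the forward strand at chr14:44681119-44681178. The 2 Mgl2 probes, at transcript bases 1037 and 1490, gave different results. They lie on the forward strand at chr11:69950532-69950591 and chr11:69950985-69951044, 393 bases apart. The Retnla probe, on the forward strand at chr16:48844447-48844506, is shown because its difference was among the widest. Each is written from 5′ to 3′. For Ear1 and the Mgl2 probe at base 1037 all 60 bases are given, for Ear2 and Retnla bases 31 to 60 of the probe, and for the Mgl2 probe at base 1490 bases 28 to 57. Capitals mark AATAAA, the usual polyadenylation signal.
Ear1 probe: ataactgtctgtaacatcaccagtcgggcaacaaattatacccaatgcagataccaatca
Ear2 probe: taattttgctgaatagatcttttctaatta
Mgl2 probe at base 1037: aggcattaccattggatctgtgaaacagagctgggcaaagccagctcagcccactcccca
Mgl2 probe at base 1490: tagtgtcgcaacAATAAAatttgagcttta
Retnla probe: ttggaaatctgactcatgtgcctttaaatg
AATAAA, searched on the probe strand as written, stood in 3 of the 12 member probes, those of Chil3, Mgl2 at base 1490 and Cd163 at base 4347, and in 5529 (9.77%) of all 56605 probes.

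Signals are the intensities of the deposited scanner files after background subtraction, each given ± the error that the scanner software assigned to it, and a level is the log2 of the signal over that array's 75th percentile, 256 for young and 198 for aged cells. All differences are aged minus young levels on the log2 scale. Their SD comes from the same errors, covers the measurement of the spots and not the spread between mice, and lay between 0.20 and 0.34 for the member probes measured on both arrays. A probe was called well above background as the files mark it, for 55.4% of the spots in young and 50.8% in aged cells. A gene with several probes is given by its brightest, and 2-fold, the threshold of the study's methods, is used to count differences.

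Both arrays detected all 10 members, and 7 of them, Ccl24, Retnla, Ear1, Ear2, Mrc1, Cd163 and Ccl17, were lower in aged cells by 2-fold or more. None was at least 2-fold higher, and Arg1, Mgl2 and Chil3 lay under 2-fold. The members' median difference was -1.87, with a range of -3.83 to 0.25. Over the 18745 genes measured on both arrays, 3.05% were at least 2-fold lower and the median difference was 0.09. With genes measured on 1 array only included as limits, 5.14% of the 21346 genes were at least 2-fold lower and 2.53% at least 2-fold higher. Since the members were picked with this contrast known, nothing is read from their count against these shares. Among the members at least 2-fold lower, the smallest difference was that of Ccl17, at -1.66, and the nearest member outside the threshold was Arg1, at -0.22. In RNA from a mixed preparation, fewer cells of a type and less RNA per cell cannot be told apart.

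**Figure D1:**
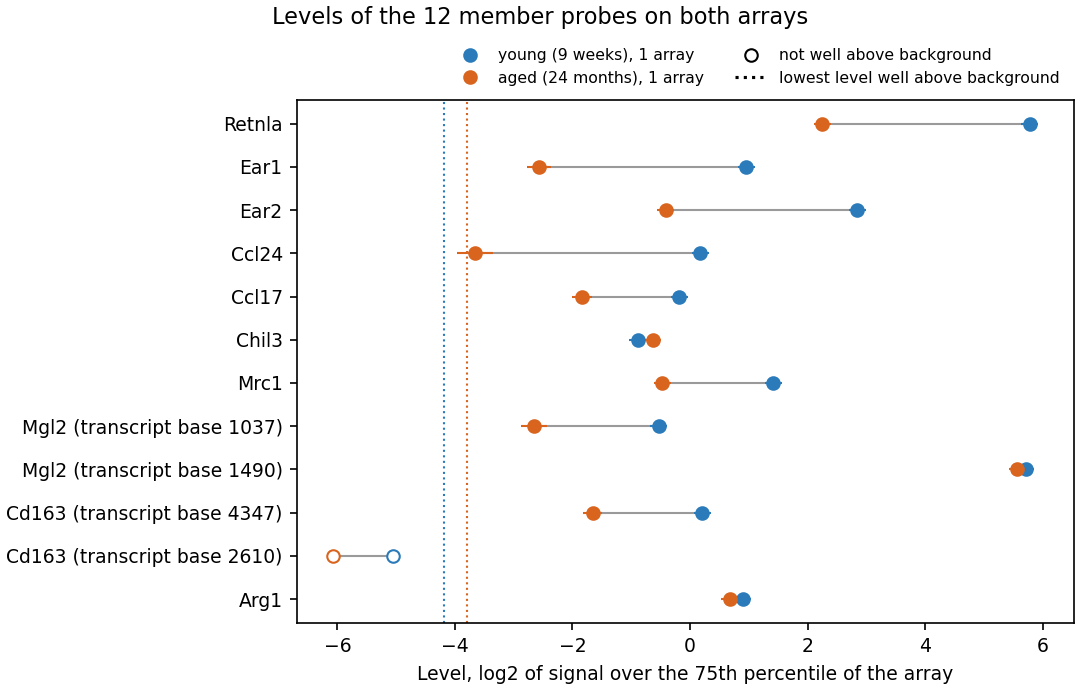
Level of each member probe in young (blue) and aged (orange) cells, 1 array each, as log2 of the signal over the 75th percentile of the array. Bars are the scanner software's error of the spot, open circles are not well above background, and dotted lines are the lowest level well above background on each array. The pairs of Retnla, Ear1, Ear2 and Ccl24 lie farthest apart, and Ccl24 comes close to the dotted line on the aged array.

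The secreted proteins held the widest differences, with 5 of 6 at least 2-fold lower. Retnla encodes resistin-like molecule alpha (also FIZZ1 or RELMa), a small cysteine-rich protein secreted during type 2 responses. Its signal was 14123 ± 1412 in young and 939 ± 94.0 in aged cells, and its level went from 5.78 to 2.25. This is a difference of -3.54 ± 0.20, or 11.6-fold lower, the 4th lowest of all genes measured on both arrays. Both signals were far above the lowest one called well above background, 14.1 in young and 14.3 in aged cells.

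Ear1 and Ear2 encode eosinophil-associated ribonucleases, a rodent family of secreted RNases with chemoattractant and antimicrobial activity. The Ear1 signal was 497 ± 49.8 in young and 33.2 ± 4.76 in aged cells, a difference of -3.53 ± 0.25 or 11.6-fold lower. The Ear2 signal was 1840 ± 184 in young and 149 ± 15.3 in aged cells, a difference of -3.26 ± 0.21 or 9.57-fold lower. They ranked 5th and 8th from the lowest among the genes measured on both arrays. Because the files list the Ear2 probe for both genes, the Ear2 value may include Ear1 transcripts, and these genes do not count as separate observations.

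The chemokine Ccl24 (eotaxin-2), which attracts eosinophils through the receptor CCR3, had the lowest difference of the members under the reported scaling, but Retnla was lower with quantile (-3.91 against -3.74), loess (-3.87 against -3.84) and normexp (-3.54 against -2.03). Its signal was 289 ± 29.0 in young and 15.7 ± 3.30 in aged cells. The difference was -3.83 ± 0.34, or 14.2-fold lower, the 2nd lowest of the genes measured on both arrays. On the aged array, it was close to the lowest signal well above background, so the size of this fold is the least certain among the members. Ccl17 (TARC), a ligand of CCR4 that attracts T helper type 2 and regulatory T cells, had a signal of 226 ± 22.8 in young and 55.4 ± 6.33 in aged cells. Its difference of -1.66 ± 0.22, or 3.16-fold lower, was smaller than that of Ccl24.

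Chil3 (Ym1), a chitinase-like lectin, was the secreted member that stood apart. Its signal was 139 ± 14.2 in young and 127 ± 13.1 in aged cells, and its difference was 0.25 ± 0.21, or 1.19-fold higher. It was the only member with a difference above 0, and with spike-in controls as the common level it was -0.01.

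Of the 3 receptors, Mrc1 and Cd163 were lower by similar sizes. Mrc1 (CD206), the mannose receptor that binds glycans of microbes and of host glycoproteins, had a signal of 683 ± 68.4 in young and 143 ± 14.7 in aged cells. The difference was -1.88 ± 0.21, or 3.69-fold lower. Cd163, the scavenger receptor for haemoglobin bound to haptoglobin, had a signal of 296 ± 29.8 in young and 62.9 ± 7.13 in aged cells, a difference of -1.86 ± 0.22 or 3.64-fold lower. The second Cd163 probe, at transcript base 2610, was detected on neither array and gives no fold.

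Mgl2 (CD301b), a C-type lectin of macrophages and dendritic cells that binds galactose and N-acetylgalactosamine, depended on the probe. The brighter probe, at transcript base 1490, is spotted 10 times, and 7 of the spots were used. Its signal was 13446 ± 1345 in young and 9373 ± 937 in aged cells, a difference of -0.15 ± 0.20. The probe at base 1037 gave 177 ± 18.0 in young and 31.5 ± 4.70 in aged cells, a difference of -2.12 ± 0.26 or 4.34-fold lower. The probes thus differed by 1.97 on the log2 scale, far more than their measurement errors, and the Mgl2 value is uncertain. Such a spread, of more than 1 on the log2 scale, was found for 344 (6.09%) of the 5653 genes with several probes measured on both arrays.

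Arg1, the cytosolic arginase that splits arginine into ornithine and urea and a widely used marker of this state, had a signal of 478 ± 47.9 in young and 317 ± 31.9 in aged cells. Its difference of -0.22 ± 0.20, or 1.17-fold lower, was close to its measurement error. Its rank was 4002 of 18745 from the lowest. The members therefore did not move as 1 block. Of the 10, 4 were over 8-fold lower, 3 were between 3- and 4-fold lower and 3 were under 2-fold. Over all genes measured on both arrays, 19 were over 8-fold lower.

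**Figure D2:**
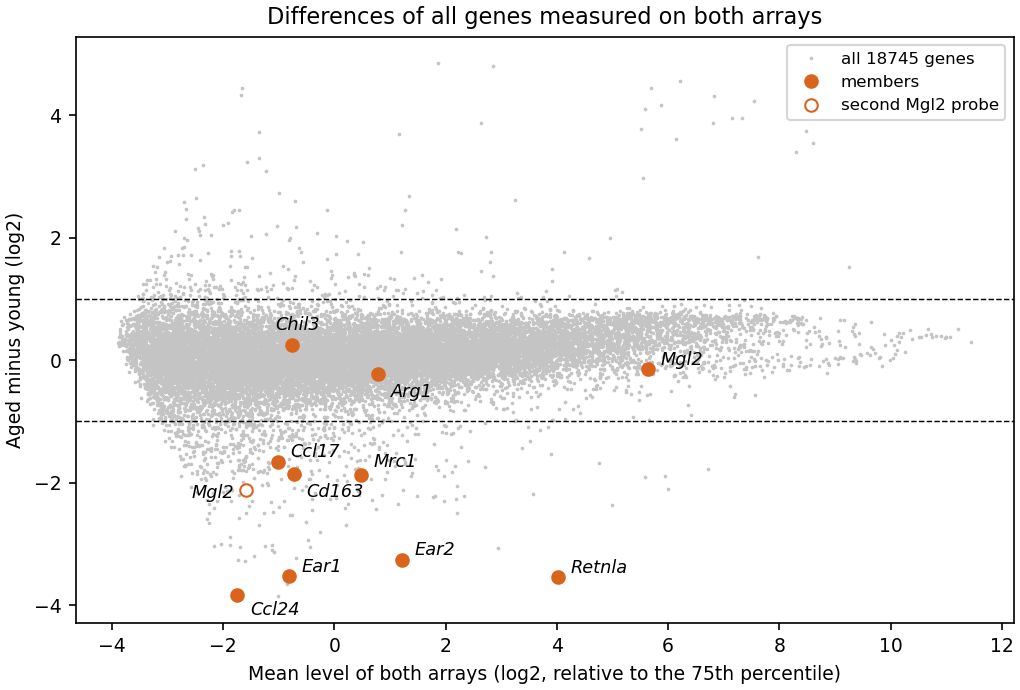
Difference (aged minus young, log2) against the mean level of both arrays for the 18745 genes well above background on both (grey), with the members in orange and the second Mgl2 probe as an open circle. Dashed lines mark 2-fold. Retnla, Ear1, Ear2 and Ccl24 lie at the lower edge of the cloud over a wide span of levels, while Chil3, Arg1 and the brighter Mgl2 probe lie inside it.

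The arrays were also scaled in 8 other ways. All 7 members that were at least 2-fold lower were so under each of the 9 scalings, while the order among the lowest 4 changed. Retnla varied least among the 4 lowest, from -3.91 to -3.36. Ear1 ran from -3.79 to -2.27, Ear2 from -3.52 to -2.82 and Ccl24 from -4.09 to -2.03, and for these 3 the smallest size came with the normexp background correction, which adds an offset of 50 to every signal. Ccl17 ranged from -1.92 to -1.06, Mrc1 from -2.14 to -1.54 and Cd163 from -2.12 to -1.20. Arg1 was below 0 throughout, from -0.48 to -0.05. Mgl2 ranged from -0.71 to 0.03 and Chil3 from -0.01 to 0.42, so neither has a settled direction.

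**Figure D3:**
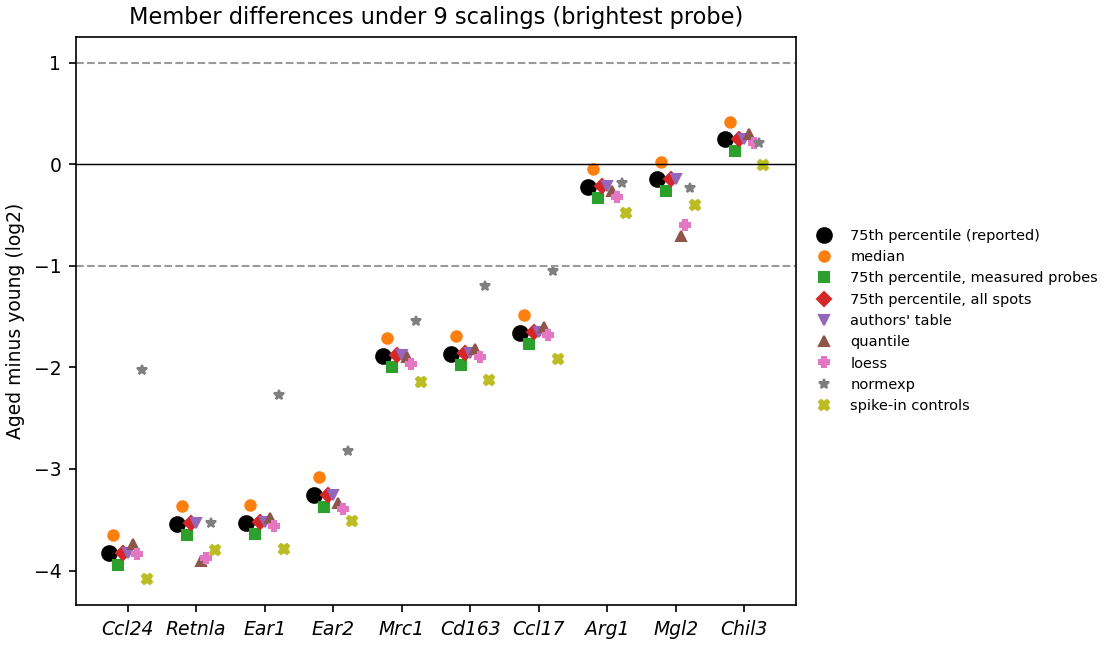
Difference (aged minus young, log2) of the brightest probe of each member under 9 scalings of the arrays, with dashed lines at 2-fold. The reported scaling is black. Ccl24, Retnla, Ear1, Ear2, Mrc1, Cd163 and Ccl17 stay below the lower dashed line, and Arg1, Mgl2 and Chil3 stay between the lines.

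The Ear family was read with all of its probes. The array has 9 probes for 7 Ear genes. Of these, 5 were measured on both arrays and 4 of the 5 were at least 2-fold lower. Ear10 had a signal of 336 in young and 31.9 in aged cells, a difference of -3.03, and its probe is listed for Ear10 alone. The Ear12 probe, with signals of 427 and 73.0 and a difference of -2.18, is listed for 4 genes, Ear2 and Ear10 among them. The Ear6 probes disagreed. One had a signal of 69.9 in young and 53.0 in aged cells, a difference of -0.03, and the other, with a signal of 69.0 on the young array, was not well above background on the aged array and was at least 3.74-fold lower. The 3 probes for Ear4 and Ear7 were detected on neither array. Signals of such near-identical genes cannot be assigned to a single paralog with certainty.

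The Ear1 and Ear2 promoters are nearly the same sequence. In the RefSeq table on GRCm38.p6, which holds a promoter for 8 of the 10 members (not for Arg1 or Ccl24), 294 of 297 aligned bases (99.0%) of the window from 250 bases before to 50 after the start were identical between Ear1 and Ear2, against 92.9% between Ear1 and Ear10. The 100 bases before each start are shown for this likeness, Ear1 from the reverse strand at chr14:43819640-43819739 and Ear2 from the forward strand at chr14:44102554-44102653.
Ear1 promoter: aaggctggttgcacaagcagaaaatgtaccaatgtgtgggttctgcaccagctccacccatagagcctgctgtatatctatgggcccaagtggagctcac
Ear2 promoter: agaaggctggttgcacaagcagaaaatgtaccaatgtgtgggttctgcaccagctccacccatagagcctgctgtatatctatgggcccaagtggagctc

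Since STAT6 is known to prefer a palindrome with a gap of 4 bases, TTCNNNNGAA was searched in the same windows; it reads the same on both strands. It was found in 2 of the 8 member promoters, Retnla and Ccl17, and in 6.95% of 32851 promoters in all. With a gap of 3 bases, TTCNNNGAA, the form bound by other STAT proteins, it was found in Chil3 and Ccl17 and in 8.30% of all promoters. GAGGAA, a core of the macrophage factor PU.1, searched on both strands, was found in 4 of the 8 and in 28.3% of all. TATAAA, also on both strands, was found in 2 of the 8, Chil3 and Retnla, and in 13.6% of all. A match is a description of the letters and not a site. The 250 bases before the start are shown for the promoters with the gap of 4, with matches to either STAT form in capitals, Retnla at chr16:48842359-48842608 and Ccl17 at chr8:94810203-94810452, both on the forward strand. The first match begins 145 bases before the start in Retnla and 154 bases before it in Ccl17.
Retnla promoter: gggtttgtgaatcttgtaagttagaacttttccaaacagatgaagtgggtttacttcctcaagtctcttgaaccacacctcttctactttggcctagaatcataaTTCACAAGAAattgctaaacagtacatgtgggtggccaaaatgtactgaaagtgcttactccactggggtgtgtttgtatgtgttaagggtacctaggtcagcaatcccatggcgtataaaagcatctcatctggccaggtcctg
Ccl17 promoter: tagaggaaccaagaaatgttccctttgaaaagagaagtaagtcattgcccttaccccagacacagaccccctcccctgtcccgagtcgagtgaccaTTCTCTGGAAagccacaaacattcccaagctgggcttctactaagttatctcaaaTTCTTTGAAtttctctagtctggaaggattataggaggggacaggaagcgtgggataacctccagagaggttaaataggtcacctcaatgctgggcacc
Of the genes with a STAT form, Retnla and Ccl17 were at least 2-fold lower and Chil3 was not. Mrc1, Ear1, Ear2 and Cd163 were lower with neither STAT form in the window. Mgl2 also had neither form and was under 2-fold by its brighter probe. A relation between matches and differences was not tested.

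The pathway of the alternatively activated state was compared through 29 genes of the IL-4 and IL-13 axis and of alternative activation. Of the 23 measured on both arrays, 3 were at least 2-fold lower and none higher, with a median of -0.28. The 3 were Clec10a, the Mgl1 lectin and closest relative of Mgl2, at -2.35, Fn1, fibronectin, at -2.12, and Clec7a, the beta-glucan receptor dectin-1, at -2.10. Stat6 itself had a signal of 480 in young and 328 in aged cells, a difference of -0.18. Il4ra, the receptor chain, had a signal of 113 and 52.6 and a difference of -0.73. Il4 and Msr1 were detected on neither array, and Il13, Irf4, Ccl22 and Pdcd1lg2 were measured on the young array only. Of these, Irf4, a transcription factor of the pathway, was at least 3.05-fold lower, and the limits of the other 3 were under 2-fold.

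Among paralogs of the members, 24 are on the array and 9 were measured on both, with 3 at least 2-fold lower and none higher and a median of -0.28 (-0.54 to 0.04 over the scalings). The 3 were Ear10, Clec10a and Ear12. Ccl22, Chit1, Retn and Rnase6 were measured on the young array only. Chit1 was at least 2.46-fold lower and Rnase6 at least 2.05-fold lower. The limit of Ccl22 was under 2-fold, and Retn gave no fold. Ang2, Arg2, Cd163l1, Chil1, Chil4, Chil5, Ear4, Ear7, Mrc2, Retnlb and Retnlg were detected on neither array.

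Because EpCAM-selected cells are epithelial by intent, markers of macrophages and of other cells were set beside the members. Of the 23 macrophage identity genes, 22 were measured on both arrays. All 22 were below 0 and 16 were at least 2-fold lower, with none higher, a median of -1.18 (-1.44 to -1.01 over the scalings) and a range of -2.18 to -0.05. With centring on the median, 21 were below 0 and 11 at least 2-fold lower, and with normexp 22 and 11. Their summed level, in multiples of the 75th percentile, was 261 in young and 129 in aged cells, so 49.5% of it was left. Without Lyz2, the largest part of the sum in young cells, 62.1% was left. Itgam, at -0.05, had the highest level of the list on the aged array, and the sum without it was not taken. Its other probe, with a signal of 19.1, was detected on the young array only. Lyz1 and Lyz2, the lysozymes, were lowest at -2.18 and -1.91, followed by the Fc receptor Fcgr3 at -1.59. Adgre1 (F4/80) was at -1.36 and Csf1r, the receptor for macrophage colony-stimulating factor, at -0.62. Spi1 was detected on neither array. The Ptprc probes measured on both arrays disagreed, from -1.53 to -0.09. Transcripts of macrophage identity genes were thus detected in both preparations and were lower in aged cells. Retnla, Ear1, Ear2 and Ccl24 had lower differences than all 22 identity genes, except that with normexp Ccl24, at -2.03, was above the lowest identity gene, at -2.21. Mrc1, Cd163 and Ccl17 lay below the median of the identity genes, with 2 of the 22 lower than each of them, and Arg1, Mgl2 and Chil3 lay above the median. Relative to that median, Retnla was at -2.36, Ear1 at -2.35, Ear2 at -2.08 and Ccl24 at -2.65, and Mrc1 was at -0.70, Cd163 at -0.68 and Ccl17 at -0.48. The part of macrophage content in the members' differences was not tested.

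**Figure D4:**
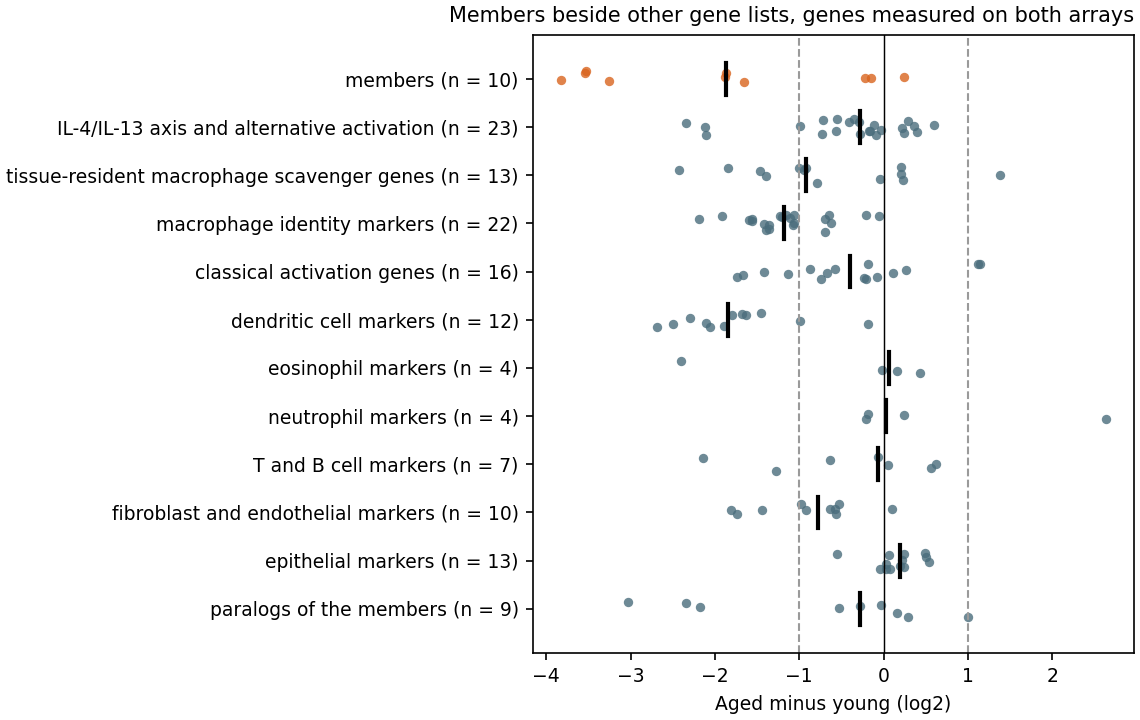
Difference (aged minus young, log2) of each gene well above background on both arrays, by list, with the members in orange, black bars at the medians and dashed lines at 2-fold. The members' median of -1.87 is near that of the dendritic cell markers, at -1.85. The 4 lowest members lie to the left of every plotted gene of the other lists. Genes measured on the young array only are not plotted. Among these, the dendritic cell marker Cd209a was at least 10.4-fold lower, a limit beyond the 9.57-fold of Ear2. The folds of Ccl24, Retnla and Ear1 were above this limit.

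Genes of resident macrophages that take up debris, 18 on the array, were mixed. Of the 13 measured on both arrays, 5 were at least 2-fold lower and 1 was higher, with a median of -0.92. F13a1, the coagulation factor XIII subunit, was at -2.42, Pf4, platelet factor 4, at -1.85 and Stab1, a scavenger receptor, at -1.46, while the chemokine Ccl8 was at 1.39. Lyve1 and Fcna were detected in young cells only, with limits of at least 2.03-fold and 2.37-fold lower. Gpnmb and Vsig4 were detected on neither array. Genes of classical activation, 21 on the array with 16 measured on both, had a median of -0.40, with 4 at least 2-fold lower and 2 higher. Ccl5 was at -1.73, the costimulator Cd86 at -1.67 and Tnf at -1.42, although the Tnf probes disagreed by more than 1 on the log2 scale, and Nos2, the inducible nitric oxide synthase that competes with arginase for arginine, was at 1.12 and Il12b at 1.14. Il12a and Il23a were detected on neither array.

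Dendritic cells also express Ccl17 and Mgl2. The list of their markers, which includes MHC class II genes, had the median closest to that of the members. Of the 12 markers measured on both arrays, 10 were at least 2-fold lower, with a median of -1.85 and a range of -2.69 to -0.19. The lowest of the 12 were Ccr7, the lymph node homing receptor, at -2.69, Ciita, which drives MHC class II genes, at -2.49 and Batf3 at -2.29. Cd209a, Clec9a and Zbtb46 were measured on the young array only. Cd209a, with a signal of 191 in young cells, was at least 10.4-fold lower. The limit of Zbtb46 was under 2-fold, and Clec9a gave no fold. The summed level of the 12 markers on the aged array was 52.9% of that on the young array, and 26.0% without Siglech. The Siglech probe differed by -0.19 and was the largest part of the sum in young cells. The Itgax probes disagreed, at -1.64 and 0.42. The MHC class II genes H2-Ab1, H2-Aa and H2-Eb1 were at -2.11, -2.05 and -1.90, and Cd74 was at -1.67. Ly75 and Xcr1 were detected on neither array. The Ccl17 difference, at -1.66, lay inside the range of the dendritic cell markers and also inside that of the macrophage identity genes. The part of either cell type in it was not tested.

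Eosinophils are the other known source of the Ear genes, and their markers were detected in part. The 13 genes of this list are linked to eosinophils, and the chemokine Ccl11 and the cytokine Il5 are among them. On both arrays 4 were measured, Il5ra at 0.44, Ccl11 at 0.16, Csf2rb and Csf2rb2. Of these, 1 was at least 2-fold lower. The median was 0.07, with a sign that changed between scalings (-0.19 to 0.24), and it is not a reading of eosinophil content. The Csf2rb probes disagreed by 2.28, from -2.31 to -0.02, and the median was -0.33 with probes averaged and -1.07, with 2 of 4 at least 2-fold lower, by the probe with the lowest difference. Epx and Prg2, which encode the granule proteins that define the cell, were detected on neither array, and neither were Alox15, Gata1, Il5 and Prg3. Siglecf, Ccr3 and Cebpe, with signals of 20.6, 17.2 and 23.2, were measured on the young array only. The limits of Siglecf and Cebpe were under 2-fold, and Ccr3 gave no fold. Csf2rb2, a receptor chain shared with other myeloid cells, was at -2.40.

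Epithelial markers differed little. Of 13 measured on both arrays, none passed 2-fold, the median was 0.20 (-0.19 to 0.37 over the scalings) and the range -0.55 to 0.54, and the summed level on the aged array was 118% of that on the young array. Epcam, the gene of the bead antigen, had a signal of 1778 in young and 1573 in aged cells, a difference of 0.20. Krt19 was measured on the young array only, with a signal of 34.2, and was at least 1.85-fold lower. Fibroblast and endothelial markers, 10 measured on both arrays, had a median of -0.78 with 3 at least 2-fold lower and 52.2% of the summed level left on the aged array. The 3 were the collagens Col1a1, Col3a1 and Col1a2, at -1.81, -1.73 and -1.44. Of the T and B cell markers, 7 were measured on both arrays, with a median of -0.07 (-0.32 to 0.11 over the scalings) and 2 at least 2-fold lower, Cd79b at -2.14 and Cd2 at -1.28, while Cd79a, Cd8a and Cxcr5 were detected on neither array. Neutrophil markers were mixed. The 4 measured on both arrays had a median of 0.03 (-0.23 to 0.20 over the scalings), with Csf3r at -0.21, Ly6g at -0.18 and Elane at 0.24 under 2-fold and Ltf higher, at 2.64. Camp was detected in young cells only. The Mmp9 probes disagreed. The brighter was detected in aged cells only, with a limit under 2-fold. The other was detected in young cells only, with a signal of 48.2, and was at least 2.61-fold lower. S100a9, S100a8 and Ngp were measured on the aged array only, at least 14.0-fold, 3.98-fold and 2.30-fold higher. Cxcr2, Mmp8, Mpo and Retnlg were detected on neither array. Markers of cells other than macrophages thus also differed between the preparations, and their part in the members' differences was not tested.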

How the data were processed

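The authors hybridized Cy3-labelled cRNA to Agilent SurePrint G3 Mouse 8 x 60K arrays, 1 per age, and the deposited scanner files (Feature Extraction 12.0.3.1, per the labels) hold the background-subtracted and detrended intensity of each spot, its error and a mark for spots well above background. The authors' processed table gives those intensities over the 75th percentile of all spots of the array and served as an alternative.

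Of 62976 spots, 59305 were not controls. Outlier spots on either array (90 and 93) were left out and no spot was saturated. Log2 intensity was centred on the 75th percentile of the array, and spots of a probe were averaged. The brightest probe well above background on at least 1 array stood for a gene. Where a probe was dim on 1 array, "at least N-fold" sets the bright signal against the higher of the probe's own dim value and the lowest detected signal of that array.

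With 1 array per age, no test was possible. The members and gene lists were chosen with earlier results of these data known. Named were all members with every probe, and from each list up to 3 genes with the widest difference and those detected on neither array. Stat6, Il4ra, Irf4, Adgre1, Csf1r, Siglecf, Csf2rb2, Epcam, Ccl8, Lyve1, Fcna, Siglech, Itgax, Csf2rb, Nos2, Il12b, Camp, Mmp9, Ngp, S100a8 and S100a9 were named after their values were seen. So were H2-Ab1, H2-Aa, H2-Eb1, Cd74, Krt19, Ccl22, Chit1, Retn and Rnase6. The same holds for Il13, Pdcd1lg2, Ear6, Ly6g, Cd209a, Clec9a, Zbtb46, Ccr3, Cebpe, Itgam and Ptprc. RefSeq tables (GRCm38.p6) gave names for 33767 of 56605 probes and the promoters. Alternatives were other scalings, background correction, filters and probe rules, with normexp (offset 50) and loess (span 0.7) from limma 3.58.1 in R 4.3.3. Other steps used Python 3.11.15 with numpy 2.4.6, pandas 2.3.3 and matplotlib 3.10.9, and were tested on simulated data.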

Additional observations from a re-analysis of the deposited data

How the results depend on the processing

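The number of members at least 2-fold lower was 7 under 11 of the 13 alternatives and 8 under the other 2, which averaged the probes of a gene or took the probe with the lowest difference and brought Mgl2 to -1.13 and -2.12. The members' median difference was -1.37 with normexp and -2.13 with the arrays set level on the spike-in controls, an alternative chosen after seeing the data, as were the probe with the lowest difference and the summed levels without their largest gene. Of all kept genes, 1098 were at least 2-fold lower, against 297 with normexp, 571 when only probes well above background on both arrays were kept and 1838 with no filter on dim probes. The median of all kept genes moved by 0.17 with centring on the median, -0.11 with the percentile over measured probes, -0.14 with loess, -0.26 with the spike-in controls and 0.18 with no filter. The share of higher genes among those past 2-fold was 32.9%, against 48.1% with centring on the median, 17.7% with the spike-in controls and 46.1% with no filter. Signal over background limits Ccl24 most. No paired analysis was possible because each age has 1 array, and no array could be left out.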
